A study of Mus musculus with 45 samples.

Results

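The 5 genes described here are P2ry1, Gpc4, Pdgfd, Gm11837 and Gm2061, out of 24333 genes for which chromatin accessibility was scored in Ter119+ erythroblasts of mice. They were chosen because their gene scores were among the lowest in Stag2 knockout (KO) relative to wild-type (WT) nuclei, so the values of that contrast are a description and carry no test. The 26 other genes that start within 500 kb of one of them were chosen by position alone, and these were tested. The gene score adds up ATAC fragments, which are pieces of accessible DNA cut by a transposase, over a gene and its surroundings. It measures accessibility and not expression.

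The series held 45 samples. Those used were 6 ATAC libraries of Ter119+ erythroblasts, the red cell precursors that carry the surface antigen Ter119, with 3 WT and 3 KO libraries made from single nuclei on the 10x Genomics multiome platform. Cells of both genotypes were taken between 6 and 8 weeks after the end of treatment with pIpC, the interferon inducer commonly used to switch on an Mx1-Cre transgene. The promoter that drove the Cre, the age of the mice, and whether each library came from 1 animal were not given in the sources. A p-value here therefore judges a difference against the spread between these libraries, with variance estimates that borrow from other genes. The authors assigned each nucleus to a class (Early, Int or Late) and to a cluster.

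The deleted gene, Stag2, codes for a part of cohesin, a ring of proteins that forms chromatin loops and brings enhancers near promoters. P2ry1 encodes a G protein-coupled receptor for ADP, best known on platelets, and Gpc4 encodes a glypican, a heparan sulfate proteoglycan anchored on the cell surface that binds growth factors. Pdgfd encodes a secreted platelet-derived growth factor that acts through the receptor Pdgfrb. Gm11837 and Gm2061 are predicted genes, and no function is given for them here.

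The genes lay on 5 chromosomes (mm10). P2ry1 spanned chr3:61002785-61008982 on the plus strand, Gpc4 chrX:52053018-52164923 on the minus strand and Pdgfd chr9:6168612-6377519 on the plus strand. Gm11837 spanned chr4:14930641-14953030 on the plus strand and Gm2061 chr1:185447116-185455568 on the minus strand. P2ry1 and Pdgfd stood in sparse surroundings, with 1 other gene start each within 500 kb, which 2.47% of all genes in the table matched or undercut. The median over all genes was 16 starts, with quartiles of 9 and 29. Gpc4 had 7 such neighbours, Gm11837 had 6 and Gm2061 had 11.

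The 250 bases before the start of P2ry1 (chr3:61002535-61002784, plus strand), Gpc4 (chrX:52164924-52165173, minus strand) and Pdgfd (chr9:6168236-6168485, plus strand) are shown because accessibility at these starts enters the gene score. The window of Slc30a10 (chr1:185454598-185454847, plus strand) lies inside the Gm2061 gene body near its start and is shown for that locus, and that of Rap2b (chr3:61364257-61364506, plus strand) is the neighbour of P2ry1. Sequences are from RefSeq on GRCm38.p6, the assembly that mm10 names, and 3 of the 5 genes and 14 of the 26 neighbours were matched. The RefSeq start used for Pdgfd lay 126 bases from the start in the authors' table. Capitals mark GATA motifs, searched as AGATAA or TGATAA on both strands.
P2ry1: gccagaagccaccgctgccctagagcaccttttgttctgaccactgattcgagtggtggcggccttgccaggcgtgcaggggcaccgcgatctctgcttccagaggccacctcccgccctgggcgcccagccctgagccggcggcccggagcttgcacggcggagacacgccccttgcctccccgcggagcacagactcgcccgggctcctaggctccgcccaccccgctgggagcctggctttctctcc
Gpc4: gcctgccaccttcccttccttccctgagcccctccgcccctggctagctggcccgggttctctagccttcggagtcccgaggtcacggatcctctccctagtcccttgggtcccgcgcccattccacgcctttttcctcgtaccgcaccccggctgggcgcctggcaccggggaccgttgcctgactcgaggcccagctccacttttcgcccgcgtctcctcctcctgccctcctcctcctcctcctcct
Pdgfd: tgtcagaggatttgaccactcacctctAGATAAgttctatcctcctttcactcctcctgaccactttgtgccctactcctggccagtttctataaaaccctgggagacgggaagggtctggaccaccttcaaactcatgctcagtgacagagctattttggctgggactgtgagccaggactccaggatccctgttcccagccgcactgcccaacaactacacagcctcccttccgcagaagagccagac
Slc30a10: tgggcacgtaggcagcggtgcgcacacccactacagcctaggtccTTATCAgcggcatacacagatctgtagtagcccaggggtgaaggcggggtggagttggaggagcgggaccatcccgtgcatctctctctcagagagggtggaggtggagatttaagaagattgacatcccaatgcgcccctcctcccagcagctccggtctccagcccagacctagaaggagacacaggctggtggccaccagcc
Rap2b: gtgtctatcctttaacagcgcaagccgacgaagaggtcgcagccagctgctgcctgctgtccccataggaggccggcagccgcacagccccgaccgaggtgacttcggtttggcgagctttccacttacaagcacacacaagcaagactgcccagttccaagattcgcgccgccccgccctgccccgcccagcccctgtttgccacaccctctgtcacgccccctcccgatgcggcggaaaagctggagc

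A GATA motif was found 1 time in the Pdgfd window and 1 time, on the other strand, in that of Slc30a10. None was found in the windows of P2ry1, Gpc4 and Rap2b, and 16.6% of the 32851 promoter windows of the same length held one. A KLF motif (CCNCNCCC, either strand, held by 45.9% of windows) occurred 3 times in Gpc4, 4 times in Rap2b and 0 times in the other 3. The RUNX motif TGTGGT, held by 14% of windows, occurred in none of the 5. A CTCF core (AGNNGGC, held by 52.5%) occurred 2 times each in P2ry1 and Gpc4, 4 times in Rap2b and 0 times in Pdgfd and Slc30a10. The windows of P2ry1 and Gpc4 were rich in G and C, at 70.8% and 68.4%, and that of Pdgfd held 53.6%.

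The 6 libraries held 4617 to 6990 nuclei and 46782673 to 66286151 fragments each. A level here is the mean of the nuclei of a library, rescaled so that all genes sum to 1000000. Stag2 itself (chrX:42149412-42277186) had gene scores of 64.2 to 65.9 in WT and 61.0 to 65.1 in KO libraries (log2 difference −0.05, limma adjusted p = 0.348 over all genes; under median centring −0.20, adjusted p = 0.0202). A score over the whole gene does not show a deletion of some exons, so it does not check the labels. Of the 10 erythroid marker genes listed, 9 were in the table. Their summed score was 1853 to 1983 in WT and 1622 to 1737 in KO libraries, and 8 of 9 were lower in KO (adjusted p under 0.05, against 14.2% of all genes). Of the 5 tested megakaryocyte and platelet markers 2 were lower and 1 was higher (14.2% and 29.1% of all genes), with list sums of 271 to 304 in WT and 302 to 313 in KO. Neutrophil, B cell, T and NK cell, and endothelial and stromal sums were higher in every KO library than in every WT library (for example 53.4 to 57.4 against 66.7 to 71.1 for neutrophil genes), while macrophage sums overlapped. Of all single genes tested, 36.1% had every KO library above every WT library. No listed marker was at 0 in all libraries. The share of fragment ends in peaks, by library median, was 62.2% to 64.7% in WT and 57.4% to 59.9% in KO. The part of these differences in the results on the 5 genes was not tested. Over 2 or more libraries, 725 cell barcode sequences recurred.

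P2ry1, the ADP receptor, scored 66.1, 71.0 and 68.1 in WT and 37.5, 32.9 and 31.3 in KO libraries, over all nuclei. Every KO library lay below every WT library, and the KO mean (33.9 ± 3.25, SD, n = 3) was 49.5% of the WT mean (68.4 ± 2.49, n = 3). The log2 difference, on the scale of log2(level + 1), was −1.0 (SE 0.064), the second lowest of 17682 genes that passed a filter on low values.

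Among all genes, Gpc4, the glypican, had the lowest log2 difference. It scored 13.3, 13.5 and 12.6 in WT and 5.62, 5.21 and 4.44 in KO libraries, so that the KO mean (5.09 ± 0.60) was 38.8% of the WT mean (13.1 ± 0.49, SD, n = 3 each) and the log2 difference was −1.22 (SE 0.11). It is the only gene of the 5 on the X chromosome, which also carries Stag2. The median log2 difference of 416 X-linked genes was −0.02, against 0.10 for all genes, and 73 of them were lower and 61 higher in KO, where 14.2% of all genes were lower and 29.1% higher at the same threshold.

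Pdgfd, the growth factor, scored 16.7, 20.2 and 17.1 in WT and 10.4, 10.4 and 8.74 in KO libraries. Its KO mean (9.84 ± 0.95) was 54.6% of the WT mean (18.0 ± 1.91, SD, n = 3 each), a log2 difference of −0.81 (SE 0.11) and rank 13 from the lowest. The WT libraries of Pdgfd spread more than those of P2ry1 or Gm2061 relative to their mean.

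The predicted genes showed the same pattern. Gm11837 scored 10.6, 11.5 and 10.4 in WT and 5.51, 5.26 and 4.11 in KO libraries (45.9% of WT, log2 difference −0.99, SE 0.12). Gm2061 scored 46.7, 46.5 and 47.7 in WT and 26.8, 24.0 and 23.7 in KO libraries (52.8% of WT, log2 difference −0.90, SE 0.068, rank 9). All 5 genes had KO libraries below all WT libraries, as had 19.3% of all genes tested over all nuclei. Since the choice of the 5 used this contrast, nothing is read from that count. Among genes called with groups apart, the lowest values outside the choice were those of Hbegf, a ligand of the EGF receptor (−0.96), the transcription factor Klf5 (−0.91) and the secreted protein gene Crisp2 (−0.90), and they lay among those of the 5.

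**Figure D1:**
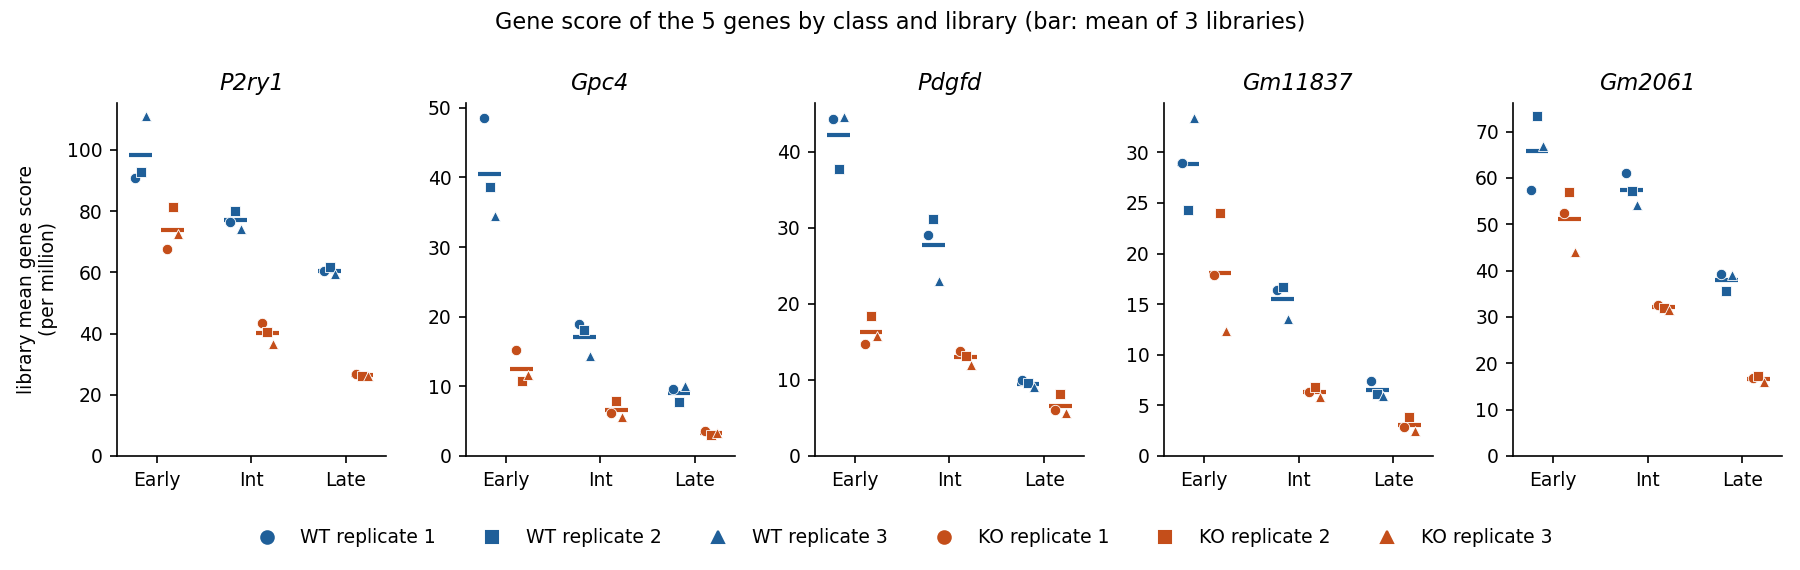
Library mean gene score (library sum 1000000, vertical axes from 0, one scale per gene) of the 5 genes in Early, Int and Late nuclei. Symbols are single libraries (blue WT, orange KO, 3 each) and bars are means of 3 libraries. In every panel and class the KO symbols lie below the WT symbols, and the means are highest in Early and lowest in Late nuclei.

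Within Int nuclei, P2ry1 scored 76.5, 80.1 and 74.2 in WT and 43.5, 40.6 and 36.4 in KO libraries, a log2 difference of −0.92. Gpc4 had 19.0, 18.1 and 14.4 against 6.24, 7.85 and 5.65 (−1.26), and Pdgfd had 29.0, 31.1 and 23.0 against 13.8, 13.1 and 11.9 (−1.03). For Gm11837 the Int values were 16.4, 16.7 and 13.5 against 6.31, 6.82 and 5.81 (−1.17). WT replicate 3 was the lowest WT library for all of them, and it also had the lowest median depth of Int nuclei (10121 fragments, against 12671 to 14998 in the other 5). Gm2061 had 61.1, 57.1 and 54.1 against 32.6, 32.0 and 31.5 (−0.82). In Int nuclei 14.4% of genes had every KO library below every WT library. Gnat2, a transducin subunit, and Hbegf had the lowest such values outside the choice in this class, −0.95 and −0.94, below those of P2ry1 and Gm2061.

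Within Late nuclei, P2ry1 scored 60.3, 61.6 and 59.5 in WT and 26.8, 26.2 and 26.0 in KO libraries, a log2 difference of −1.17. Gpc4 had 9.64, 7.71 and 10.0 against 3.58, 3.04 and 3.23 (−1.23), and Gm2061 had 39.4, 35.5 and 39.0 against 16.7, 17.3 and 16.0 (−1.14). Pdgfd stood apart from these in Late nuclei. Its levels were 9.96, 9.55 and 9.03 against 6.04, 8.13 and 5.64, a log2 difference of −0.48 that ranked 194 of 15886, and its KO replicate 2 lay close to the WT libraries. The value was −0.82 under quantile normalization and under cyclic loess. That of Gpc4 was −0.77 with a pseudocount of 5, since its levels are low. Gm11837 did not pass the filter on low values in this class, with 7.36, 6.11 and 5.94 in WT and 2.88, 3.83 and 2.43 in KO. In Late nuclei 22.7% of genes had all KO below all WT libraries, and Klf5 (−1.12), 9530077C05Rik (−1.09) and Hbegf (−1.08) had the lowest such values outside the choice, below that of Pdgfd.

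Early nuclei were few, at 20 to 235 per WT and 16 to 310 per KO library, and were not tested. The mean levels of all 5 genes were highest there. These nuclei were also the deepest, with library median depths of 38126 to 53468 fragments against 10121 to 14998 in Int nuclei. The part of depth in the Early levels was not tested. P2ry1 averaged 98.2 in WT and 73.7 in KO, Gpc4 40.5 and 12.5, Pdgfd 42.2 and 16.3, Gm11837 28.9 and 18.1, and Gm2061 65.9 and 51.1. The KO mean was thus 30.8% of WT for Gpc4 and 38.6% for Pdgfd, but 75.1% for P2ry1 and 77.6% for Gm2061. In Early nuclei 7.82% of genes had all KO below all WT libraries.

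The difference between classes averaged both genotypes, so it was not the contrast that chose the genes, and it was tested. The choice used the same libraries and was made within classes too, so the test is not fully independent of it. P2ry1, Gpc4, Pdgfd and Gm2061 fell from Int to Late in 6 of 6 libraries. The log2 difference, Late minus Int, was −1.16 for Pdgfd (SE 0.079, limma adjusted p = 5.84e-12), −0.83 for Gpc4 (4.34e-08), −0.74 for Gm2061 (6.02e-13) and −0.46 for P2ry1 (6.59e-11). This fit filtered genes on their mean level over both classes, which Gm11837 passed. In the Late fit of KO minus WT, Gm11837 was below the filter on low values. Its difference of −1.01, lower in Late in 6 of 6 libraries, is therefore given with no test. Gpc4 passed the filter of the Late fit only through the WT libraries, with a Late mean of 9.12 in WT and a KO mean of 3.28, below the minimum level. Its adjusted p therefore rests in part on low KO levels. The Late minus Int mean of Gpc4 was −0.84 in WT and −0.81 in KO libraries. A fall was common: 52.9% of 17747 genes were lower in Late and 29.6% were higher, with a median of −0.15. Late nuclei were also shallower, with library median depths of 5693 to 6812 fragments against 10121 to 14998 in Int nuclei. The part of depth in these falls was not tested. Under quantile normalization the values for Pdgfd, Gm11837 and Gpc4 were −0.76, −0.40 and −0.29, and under median centring that of P2ry1 was −0.27. Over all alternatives these values stayed below 0, and the highest adjusted p of the 4 tested genes was 0.0086 (Gpc4). The KO effect in Late minus that in Int, given as a description, was 0.55 for Pdgfd, 0.28 for Gm11837, 0.03 for Gpc4, −0.25 for P2ry1 and −0.32 for Gm2061.

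The authors' clusters separated the genotypes for most Int and Late nuclei. Clusters C8 and C10 (Int) and C2 (Late) held mostly KO nuclei, and C9, C11 and C6 (mostly Int) and C3 (Late) mostly WT nuclei, so that few nuclei of the other genotype were left within them. P2ry1 lay between 33.4 and 52.6 in the KO libraries of C8 and C10 and between 71.0 and 92.6 in the WT libraries of C9 and C11. Gpc4 lay between 5.27 and 11.4 against 13.99 and 30.0, and Pdgfd between 12.2 and 15.7 against 20.1 and 44.9. Gm11837 lay between 5.16 and 9.56 against 13.04 and 20.9. For Gm2061 the ranges nearly met, at 24.4 to 43.8 against 44.0 to 92.3. In WT libraries all 5 genes were lower in C11 than in C9. The WT cluster C6, with library median depths of 5119 to 6042 fragments in its Int nuclei, had Gpc4 at 9.74 to 12.6, which overlapped the KO libraries of C8. In the Late clusters P2ry1 lay between 25.8 and 26.5 in the KO libraries of C2 and between 59.8 and 61.4 in the WT libraries of C3. Since the clusters were made from these nuclei, no test was run across them.

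Cluster C5 held both genotypes (143 to 261 WT and 528 to 598 KO nuclei per library, nearly all Int). Its Int nuclei had library median depths of 3909 to 4163 fragments in WT and 4765 to 5052 in KO. The part of depth in the C5 values was not tested. P2ry1 scored 64.8, 82.2 and 87.6 there in WT and 39.6, 40.1 and 28.5 in KO libraries, and Pdgfd 43.7, 39.6 and 31.9 against 11.6, 10.5 and 10.2. The log2 differences in C5 were −1.10 for P2ry1 (SE 0.18), −1.72 for Gpc4 (0.32), −1.73 for Pdgfd (0.22), −1.49 for Gm11837 (0.32) and −1.26 for Gm2061 (0.14). In C5 0.89% of 19438 genes passed the adjusted threshold, a share given for the neighbours tested there. The C5 nuclei are part of the contrast that chose the 5 genes, so nothing is read from their C5 values. The Late cluster C2 held only 58 to 68 WT nuclei per library, at median depths of 1887 to 2258.5 fragments for its Late nuclei. Its WT values scattered from 1.29 to 17.2 for Gpc4 and from 4.99 to 65.5 for Gm2061 and overlapped the KO values there. The log2 differences in C2 were −0.88 for P2ry1 (SE 0.36), −0.60 for Gpc4 (0.87), −0.06 for Pdgfd (0.61) and −0.35 for Gm2061 (0.81). Gm11837 did not pass the filter in C2, where its mean was higher in KO (3.11) than in WT libraries (2.15, from 0.29 to 4.93).

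**Figure D2:**
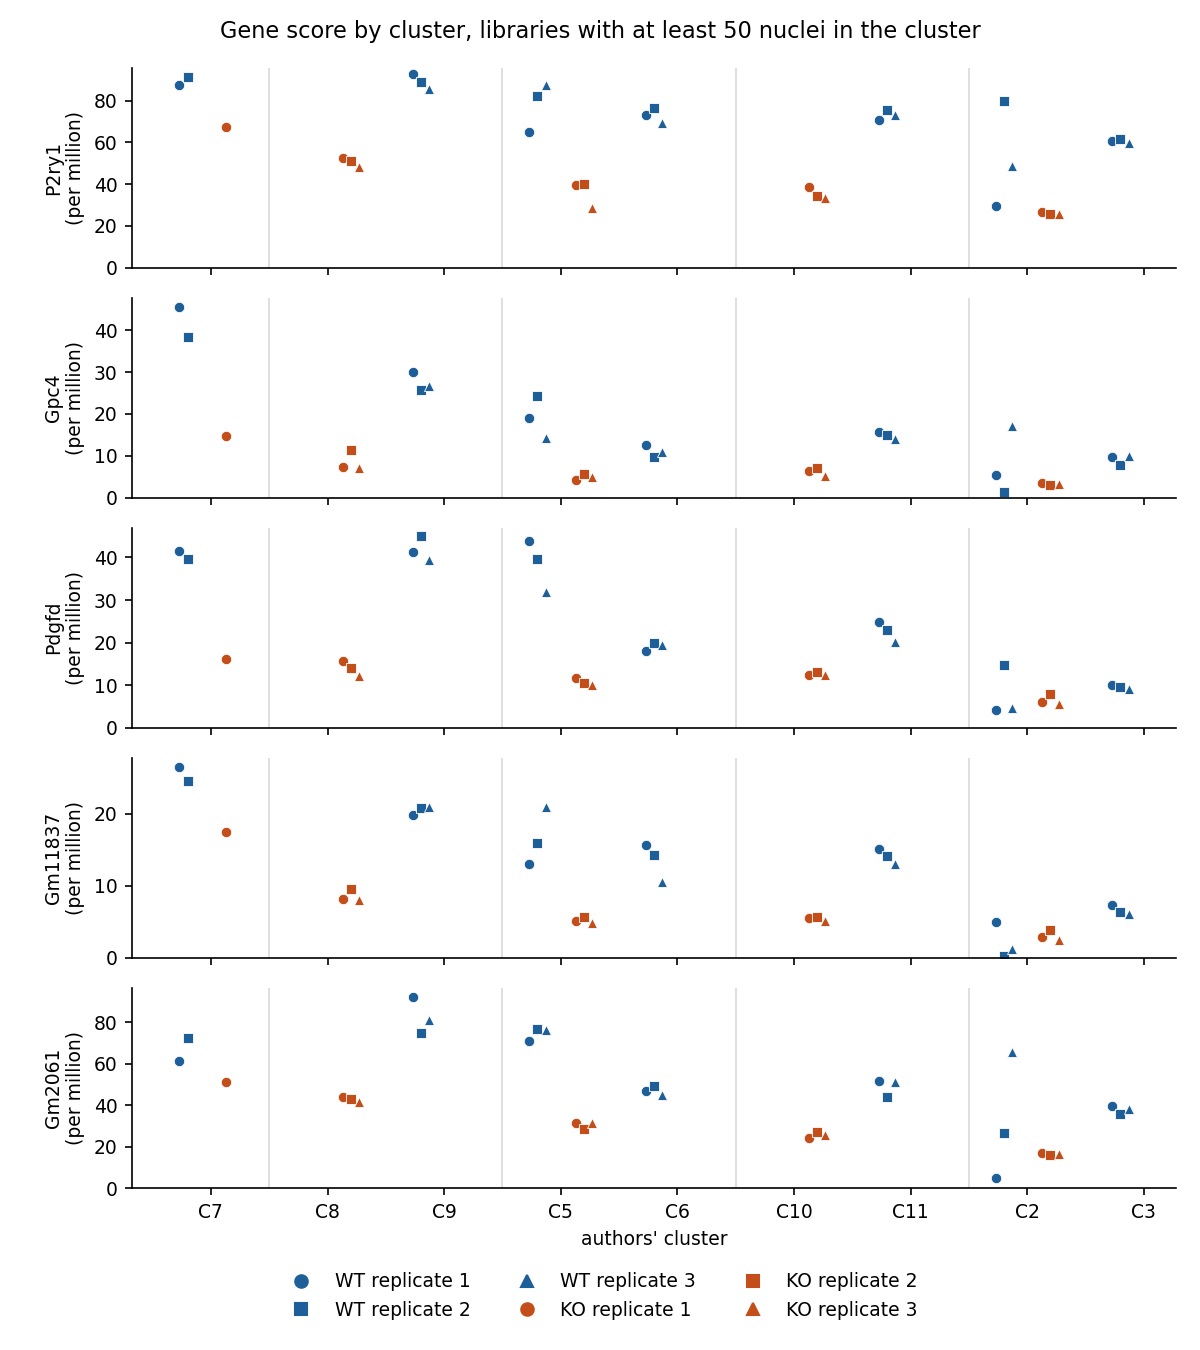
Library mean gene score (library sum 1000000) of the 5 genes, 1 panel each, in 9 of the authors' clusters, for libraries with at least 50 nuclei in the cluster. Symbols are libraries (blue WT, orange KO), grey lines set apart neighbouring groups of clusters, and a missing symbol means too few nuclei. KO symbols in C8, C5 and C10 lie low, while the few WT nuclei of C2 scatter widely.

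Among Int nuclei of like depth, fewer KO than WT nuclei had any signal at these genes, and the mean score of those with signal was lower too. Both measures are parts of the contrast that chose the genes, so nothing is read from either. To hold depth near constant, Int nuclei of 10000 to 20000 fragments and Late nuclei of 5000 to 10000 fragments were compared, a range chosen after the data were seen. In Int nuclei P2ry1 was above 0 in 63.6% ± 2.54 of WT and 47.9% ± 1.27 of KO nuclei (SD, n = 3 libraries each). The mean score of the nuclei above 0 was 1.18 in WT and 0.823 in KO for P2ry1, 0.649 and 0.473 for Gpc4, and 0.651 and 0.499 for Pdgfd. On that measure Gm11837 had 0.716 and 0.605, and Gm2061 1.36 and 1.16. Of all genes tested in Int nuclei 32.4% had every KO library below every WT library on this measure and 4.61% above. In Late nuclei the libraries overlapped on this measure for Pdgfd (0.696 to 0.757 in WT and 0.617 to 0.721 in KO) and for Gm11837 (1.04 to 1.07 and 0.926 to 1.14). The Late ranges were apart, as they were with KO lower for 6.99% and higher for 18.2% of all genes tested, for P2ry1 (1.66 to 1.77 and 1.2 to 1.29), Gpc4 (0.707 to 0.855 and 0.569 to 0.665) and Gm2061 (1.93 to 2.0 and 1.70 to 1.90). In Int nuclei Gpc4 was above 0 in 27.0% of WT and 13.3% of KO nuclei, Pdgfd in 40.8% and 24.6%, Gm11837 in 21.1% and 9.56%, and Gm2061 in 41.6% and 26.6%. In Late nuclei the shares were 35.8% and 21.3% for P2ry1, 11.2% and 4.08% for Gpc4, 13.1% and 8.03% for Pdgfd, 5.97% and 3.15% for Gm11837, and 19.7% and 8.55% for Gm2061. In these shares the KO libraries of the 5 genes lay below the WT libraries in both classes, as was so for 6.99% of all genes tested in Int and 23.4% in Late nuclei, and every KO library lay above every WT library for 39.4% and 31.1%. Since the choice used the same contrast, nothing is read from this. The compared Int nuclei had library median depths of 14024 to 14888 fragments in WT and 15034 to 15660 in KO, so the KO nuclei were slightly deeper. The part of this in the shares and mean scores was not tested. Without the depth range the Int shares for P2ry1 were 53.4% and 44.3%.

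**Figure D3:**
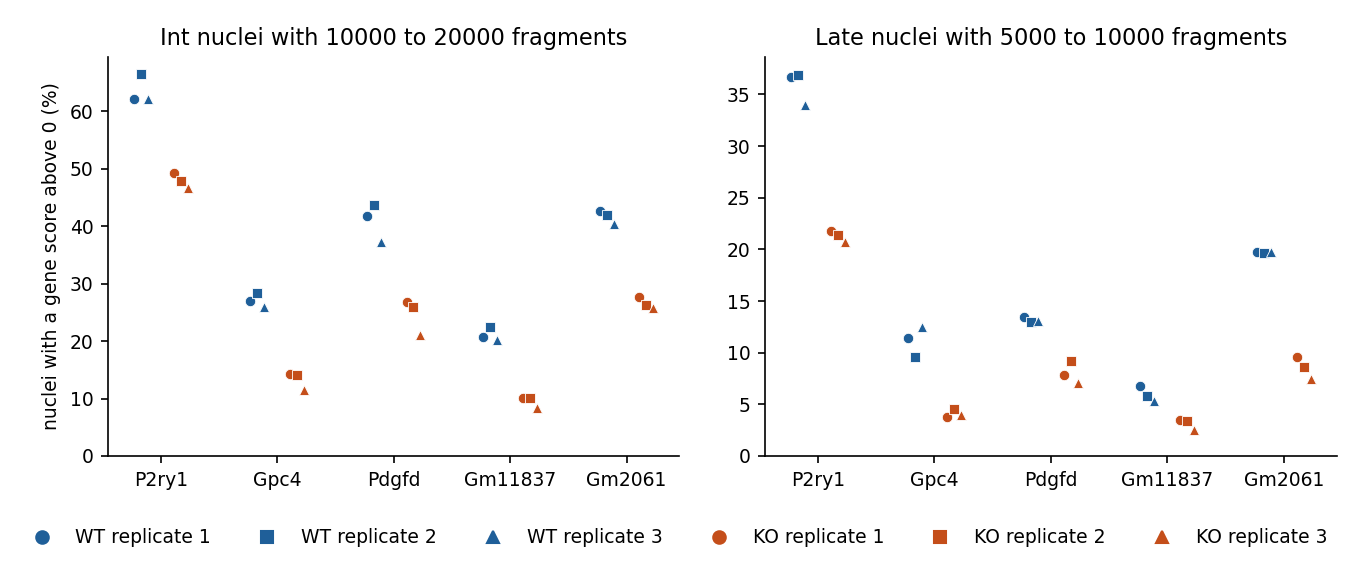
Percentage of nuclei with a gene score above 0 (vertical axes from 0) for the 5 genes, in Int nuclei of 10000 to 20000 fragments and Late nuclei of 5000 to 10000 fragments. Symbols are libraries (blue WT, orange KO), and for P2ry1 in Int nuclei the WT symbols lie between 62.0% and 66.5% and the KO symbols between 46.6% and 49.2%.

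The neighbours that passed the test went in both directions, and how many were lower depended on the scaling. Of the 18 neighbours tested over all nuclei, 3 were lower and 2 higher in KO at an adjusted p under 0.05 (limma, Benjamini-Hochberg over all genes). That is 5 of 18, against 43.3% of all genes (14.2% lower and 29.1% higher). In Int nuclei 2 of 19 were lower and 1 higher, where 19.8% of all genes passed (7.1% lower and 12.7% higher). In Late nuclei 5 of 13 were lower and 3 higher, where 51.4% of all genes passed (18.5% and 32.9%). The median log2 difference of the neighbours was 0.02 over all nuclei, −0.07 in Int and −0.14 in Late, beside 0.10, 0.06 and 0.05 for all genes. The score takes in a gene's surroundings, so neighbours that are close or overlap in gene body may share fragments with the chosen gene. The tests of such neighbours may then not be independent of the choice. The sharing was not tested. Under other scalings most of the neighbours called were lower. Over all nuclei 9 were lower and 1 higher under quantile normalization (16.3% and 14.4% of all genes), 8 and 1 under cyclic loess (13.6% and 16.0%), and 8 and 2 under median centring (31.2% and 17.1%). In Int nuclei they were 8 and 1 (10.4% and 10.7% of all genes), 8 and 1 (8.51% and 11.5%), and 9 and 0 (21.6% and 6.95%). In Late nuclei they were 6 and 2 (20.2% and 17.6%), 5 and 3 (17.7% and 19.6%), and 6 and 3 (28.2% and 25.9%). The neighbours' median over all nuclei was −0.20, −0.21 and −0.13 under the 3 scalings. The median of all genes was −0.05, −0.12 and −0.01 over all, Int and Late nuclei under median centring. Of all genes called over all nuclei 67.1% were higher in KO, against 46.9% under quantile normalization, 54.0% under cyclic loess, 35.4% under median centring, 44.7% with a minimum mean level of 20 and 77.2% without a variance trend. In Int nuclei 64.2% of calls were higher, against 50.7% under quantile normalization, 24.4% under median centring, 53.9% with a minimum of 20 and 81.1% without a variance trend. In Late nuclei the share was 64.0%, against 46.5% (quantile normalization), 52.5% (cyclic loess), 47.9% (median centring), 41.0% (a minimum of 20) and 74.8% (no filter).

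Rap2b, which encodes a small GTPase of the Ras family, was the neighbour of P2ry1, 361.7 kb downstream of its start (chr3:61364507-61368703), and it changed in the other direction. It scored 35.7, 47.3 and 39.9 in WT and 69.8, 61.0 and 62.1 in KO libraries, and every KO library lay above every WT library, as was so for 36.1% of genes over all nuclei and 36.8% in Late nuclei. It rose by 0.65 (log2, SE 0.079, limma adjusted p = 7.36e-06) over all nuclei and by 1.0 in Late nuclei (adjusted p = 2.64e-07), from 24.2, 26.6 and 30.4 to 54.8, 54.2 and 55.5. In Int nuclei it rose by 0.36 (adjusted p = 0.000858), a call that was lost under median centring (0.19, adjusted p = 0.103) and without a variance trend (adjusted p = 0.10). The difference between the Late and Int effects was itself 0.63 (SE 0.11, adjusted p = 0.00127), where 7.49% of all genes passed. Without a variance trend this call was lost (adjusted p = 0.105).

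Slc30a10, a manganese exporter gene, starts 0.72 kb from the start of Gm2061 on the opposite strand (chr1:185454848-185468762), and the 2 gene bodies overlap, so that their scores may share fragments, which was not tested. The tests of Slc30a10 may therefore not be independent of the choice of Gm2061. It scored 69.0, 62.0 and 64.0 in WT and 47.2, 42.8 and 38.8 in KO libraries, with no overlap. It fell by 0.59 over all nuclei (value −0.59, SE 0.065, limma adjusted p = 2.33e-06), by 0.55 in Int (2.22e-07) and by 0.74 in Late nuclei (3.38e-05). Within cluster C5 the log2 difference was −1.05 (adjusted p = 0.00509), the single neighbour called of 18 there. That call was lost without KO replicate 1 and without KO replicate 3. In cluster C2 0 of 13 neighbours passed (limma; 3 at an unadjusted p under 0.05), as 0 of 17360 genes did (2190 unadjusted).

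The other neighbours of Gm2061 differed less. Mark1, a kinase gene 456 kb away, rose by 0.40 over all nuclei (adjusted p = 0.0157) and by 0.61 in Late (0.00108). In Late nuclei its WT mean (4.16) lay below the minimum level of 5 and its KO mean (6.89) above it, so that it entered the fit through the KO libraries, and the call was the same with no filter. Mark1 missed the threshold under quantile normalization and cyclic loess in both, and over all nuclei also when WT replicate 1 or 3, or KO replicate 2, was left out (0.33 to 0.51 with any 1 library left out). Bpnt1, a phosphatase gene, fell by 0.21 in Late nuclei (value −0.21, adjusted p = 0.0475), and Snora36b, a small nucleolar RNA gene inside Rab3gap2, rose by 0.52 (adjusted p = 0.0307). Each of these calls was lost in 8 of the alternatives, 4 of them left-out libraries (−0.28 to −0.12 for Bpnt1 and 0.33 to 0.74 for Snora36b with any 1 library left out). For Bpnt1 these were WT replicates 1 and 2 and KO replicates 2 and 3, and for Snora36b WT replicates 1 and 3 and KO replicates 1 and 2. 5033404E19Rik, Rab3gap2, Iars2, Eprs and Mir215 were tested and not called over all nuclei, at −0.17, 0.05, −0.14, 0.03 and 0.01. Under quantile normalization, cyclic loess, median centring and matched nuclei 5033404E19Rik and Iars2 did pass over all nuclei (down to −0.32 and −0.28), and under some alternatives also in Int (−0.37 and −0.32) and Late nuclei (−0.36 and −0.25). With any 1 library left out they lay between −0.22 and −0.09 and between −0.20 and −0.09 over all nuclei. Bpnt1 passed over all nuclei under 5 alternatives (down to −0.31) and in Int under 3 (−0.30), Snora36b over all nuclei under 3 (up to 0.46), and Rab3gap2 and Eprs in Late nuclei under 2 and 1 (up to 0.17 and 0.16). Mir194-1 and 9630028B13Rik were below the minimum level of 5 over all, Int and Late nuclei, and with a lower minimum they were not called.

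Around Gm11837, Tmem64, a membrane protein gene 335.2 kb away, scored 81.5, 77.6 and 76.3 in WT and 64.7, 64.2 and 63.8 in KO libraries. Tmem64 fell by 0.28 over all nuclei (value −0.28, limma adjusted p = 0.000113), by 0.22 in Int (0.00198) and by 0.33 in Late (9.54e-05). Otud6b, a deubiquitinase gene, fell by 0.16 over all nuclei (value −0.16, adjusted p = 0.0143) and by 0.15 in Late nuclei (0.0439). Pip4p2, a phosphoinositide phosphatase gene and the nearest at 66.4 kb, fell by 0.24 in Late nuclei (adjusted p = 0.0327). The Otud6b and Pip4p2 calls were lost under 4 to 9 alternatives. With any 1 library left out, Otud6b lay between −0.19 and −0.13 over all nuclei, where WT replicate 3 and KO replicate 2 decided the call, and Pip4p2 between −0.29 and −0.20 in Late nuclei, where each library but KO replicate 1 did. Lrrc69 and Necab1, whose gene body overlaps the end of Gm11837, were not called (0.26 and 0.08, down to −0.02 and −0.20 under alternatives), nor was Slc26a7, tested in Int nuclei alone (0.02). Some alternatives added calls around Gm11837, namely Pip4p2 over all nuclei under 4 (down to −0.41), Pip4p2 (−0.35), Necab1 (−0.33) and Otud6b (−0.33) in Int nuclei under 3 to 5, and Lrrc69 over all nuclei under 2 (up to 0.33; WT mean 4.62, below the minimum level, and KO mean 5.73). In Late nuclei 3 genes around Gm11837 below the minimum level of 5 passed the threshold with a minimum of 1 and with no filter. They were Lrrc69 (0.52, WT 2.05 to 2.71 and KO 2.60 to 4.95), Necab1 (0.38, WT 3.38 to 3.73 and KO 4.55 to 5.48) and Slc26a7 (0.42, WT 1.65 to 2.18 and KO 2.60 to 3.30).

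No neighbour of Gpc4 or Pdgfd passed the threshold in the main fits, which used none of the alternative settings. Of the 7 around Gpc4, the heparan sulfate sulfotransferase gene Hs6st2 and the glypican gene Gpc3 were tested over all nuclei (0.14 and 0.07, both below 0 under some alternatives, down to −0.14 and −0.21), and Mir717, which lies inside Gpc3, in Int nuclei (−0.07), and none of these reached an unadjusted p under 0.05. In Late nuclei Hs6st2 was below the minimum level (WT 1.94 to 2.24 and KO 2.67 to 3.59) and passed the threshold with a minimum of 1 and with no filter, at 0.45. Usp26, 1700080O16Rik, Mir6384 and A630012P03Rik did not pass the filter. Gpc3, another glypican gene on the X chromosome, scored 5.94 ± 0.39 in WT and 6.27 ± 0.59 in KO libraries (SD, n = 3 each), and the ranges overlapped. Ddi1, which lies inside the Pdgfd gene body and may share its fragments (not tested), was at −0.21 over all nuclei (adjusted p = 0.163) and −0.41 in Int (adjusted p = 0.0789). Over all nuclei Ddi1 passed the threshold under quantile normalization, cyclic loess and median centring (down to −0.49, adjusted p = 0.00184), and its value was −0.28 to −0.10 with any 1 library left out. In Int nuclei Ddi1 passed the threshold under 7 alternatives, among them quantile normalization, cyclic loess and the fit without WT replicate 3.

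**Figure D4:**
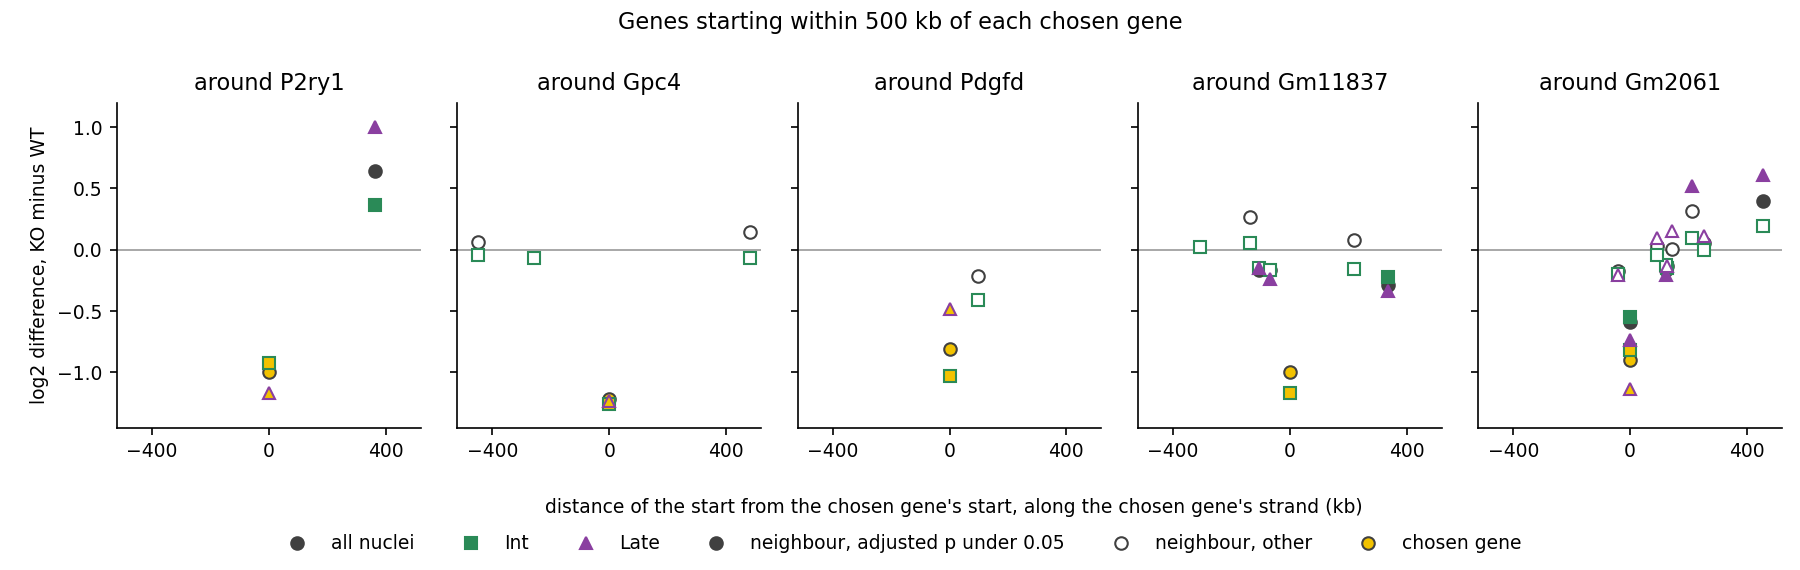
Log2 difference (KO minus WT, vertical axis) against the distance of a gene's start from the start of the chosen gene in kb, read along the chosen gene's strand, for the genes around each of the 5. Circles, squares and triangles are the fits over all, Int and Late nuclei, filled symbols are neighbours with an adjusted p under 0.05, and yellow marks the chosen gene. Rap2b is the point above 0 beside P2ry1, and Slc30a10 the filled points just above Gm2061.

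The levels of the 5 genes over the 12 library-by-class means (Int and Late) followed one another. Pearson's r between pairs ran from 0.787 (P2ry1 and Pdgfd) to 0.977 (Gpc4 and Gm2061), a description in which the points share libraries, depth and the contrast that chose the genes. By the same measure, the genes elsewhere in the genome most like P2ry1 were Tsc22d1 and 5730460C07Rik, both at 0.98. For Gpc4 they were Sqor and Cadm3, for Pdgfd Hspbp1 and Acnat1, for Gm11837 Dhrs3 and Pdzrn3 (all 0.98), and for Gm2061 5730460C07Rik and Cfap54 (both 0.99). The gene 5730460C07Rik thus appeared for P2ry1 and for Gm2061, with means of 179.1 and 113.8 in WT and KO Int nuclei and 140.1 and 76.9 in Late nuclei. Between 218 and 385 of about 15861 to 15869 genes reached r above 0.9 with one of the 5.

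Most other genes of the P2ry1 pathway did not pass the test over all nuclei, nor did most of all genes, of which 43.3% passed. In the purinergic list (nucleotide and adenosine receptors, the enzymes that break down extracellular ATP, and the Gq and phospholipase C chain that P2ry1 signals through), 1 gene was lower and 6 were higher of 27 tested over all nuclei, where 14.2% of all genes were lower and 29.1% higher. In Int nuclei 0 were lower and 2 higher of 27 (7.1% and 12.7% of all genes), and in Late nuclei 2 lower and 8 higher of 23 (18.5% and 32.9%). The counts changed with the settings, over which 0 to 2 were lower and 1 to 11 higher over all nuclei (3 to 11 higher with 1 library left out), 0 to 3 and 1 to 5 in Int, and 1 to 8 and 2 to 10 in Late nuclei. The list median was 0.14 over all nuclei, beside 0.10 for all genes. Gnaq, which encodes the G protein alpha subunit that P2ry1 couples to, had the largest difference of the list and rose from 26.0 ± 3.18 to 45.1 ± 2.49 (SD, n = 3 each; log2 0.78, limma adjusted p = 1.08e-06). It rose by 0.67 in Int and 0.88 in Late nuclei. P2ry14, a receptor for UDP-sugars, rose by 0.70 (limma adjusted p = 0.000219), a call lost when nuclei were weighted by fragments. Its WT mean of 4.21 lay below the minimum level and its KO mean of 7.50 above it, and the call was the same with no filter. P2rx7, Nt5e, P2ry2 and Entpd1 rose by 0.34, 0.32, 0.31 and 0.27. Of these, P2rx7, Nt5e and P2ry2 were not called under quantile normalization, cyclic loess or median centring, and Entpd1 not under median centring. The P2rx7 and P2ry2 calls were also lost without any 1 of 5 libraries (all but WT replicate 2), and that of Nt5e without any 1 of 4 (all but WT replicate 2 and KO replicate 3); with 1 library left out the values lay between 0.26 and 0.45, 0.26 and 0.39, and 0.23 and 0.39. The lower gene was P2rx3, an ion channel gene named after its values were seen, which fell by 0.16 (value −0.16, adjusted p = 0.00677).

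In the list of glypicans, syndecans and heparan sulfate enzymes, 5 genes were lower and 8 higher of 30 tested over all nuclei, 5 and 1 of 33 in Int, and 6 and 10 of 26 in Late nuclei. Of all genes 14.2% were lower and 29.1% higher over all nuclei, 7.1% and 12.7% in Int, and 18.5% and 32.9% in Late nuclei. Over the settings 4 to 7 were lower and 0 to 10 higher over all nuclei, 3 to 10 and 0 to 5 in Int, and 4 to 7 and 1 to 13 in Late nuclei, and with 1 library left out 4 to 9 were higher over all nuclei. The list median was 0.14 over all nuclei. Gpc2, another glypican gene, fell from 42.5 ± 2.32 to 31.5 ± 1.86 (log2 −0.42, limma adjusted p = 0.00013), and it fell by 0.41 in Int and by 0.46 in Late nuclei. Ext1, which encodes a subunit of the enzyme that elongates heparan sulfate chains, fell from 134.0 ± 7.65 to 97.3 ± 4.2 (log2 −0.46, adjusted p = 1.33e-06), while Ext2, its partner subunit, rose by 0.40 (adjusted p = 0.0034). Ndst1, which starts the sulfation of the chain, rose by 0.48, Extl2 by 0.35 and Xylt1, which starts chain synthesis on the core protein, by 0.32. The rises of Ext2, Ndst1, Extl2 and Xylt1 over all nuclei were not called under quantile normalization, nor that of Xylt1 without KO replicate 1 (0.24 to 0.38 with any 1 library left out). The falls of Gpc2 and Ext1 passed the threshold in each alternative run.

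In the list of PDGF and VEGF ligands and receptors, 0 genes were lower and 4 higher of 14 tested over all nuclei (limma; 7 at an unadjusted p under 0.05), 0 and 1 of 15 in Int, and 0 and 4 of 11 in Late nuclei. The share of 4 in 14 higher was near that of all genes. Of all genes 14.2% were lower and 29.1% higher over all nuclei, 7.1% and 12.7% in Int, and 18.5% and 32.9% in Late nuclei. Over the settings 0 to 2 were lower and 0 to 7 higher over all nuclei (1 to 5 higher with 1 library left out), 0 to 1 and 0 to 2 in Int, and 0 to 1 and 0 to 7 in Late nuclei. The list median was 0.23. Kdr, a VEGF receptor gene of endothelium that also stands in the endothelial marker list, rose from 7.05 ± 0.81 to 13.6 ± 0.95 (log2 0.86, limma adjusted p = 1.98e-05), by 0.62 in Int and by 1.16 in Late nuclei. In Late nuclei its WT mean (4.29) lay below the minimum level of 5 and its KO mean (10.9) above it, and the call was the same with no filter. The coreceptor gene Nrp2 rose by 0.42, the ligand gene Vegfa by 0.31 and the receptor gene Flt1 by 0.29 over all nuclei, and none of these 3 was called under quantile normalization or cyclic loess. With any 1 library left out they lay between 0.31 and 0.52, 0.22 and 0.43, and 0.24 and 0.37. The Nrp2 call was lost without KO replicate 1, that of Vegfa without WT replicate 1 or 3 or KO replicate 1 or 2, and that of Flt1 without any library but WT replicate 2. Pdgfrb, named here as the receptor of the Pdgfd product, was at 0.22 over all nuclei (adjusted p = 0.11).

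**Figure D5:**
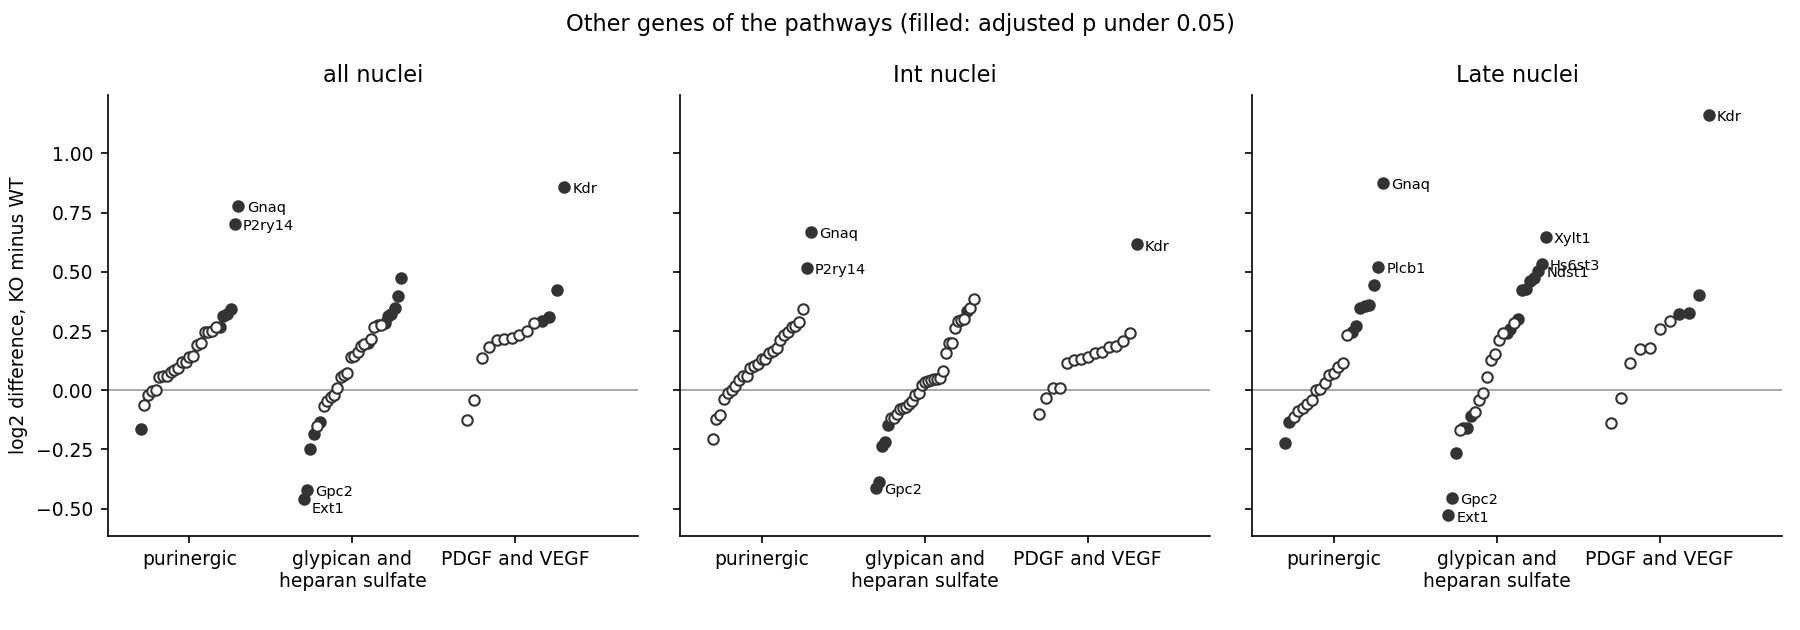
Log2 difference (KO minus WT, vertical axis) of the other genes of the 3 lists, over all, Int and Late nuclei, sorted within each list. Filled points have an adjusted p under 0.05, and those above 0.5 or below −0.4 are named. Gnaq, P2ry14 and Kdr are among the highest, and Gpc2 and Ext1 the lowest.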

How the data were processed

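The files analysed here give, for 6 Ter119+ erythroblast ATAC libraries, a gene score per gene and nucleus and, per nucleus, fragment counts, a share of fragment ends in peaks, a class and a cluster. The gene scores are a signal that the authors had scaled to a sum near 10000 per nucleus (9999.855 to 10000.12, from the values), and the fragment counts are deposited as whole numbers. The share of ends in peaks is a deposited score. Per the submitters' processing notes the build was mm10 and Cell Ranger was used. The weights behind the gene score and how classes and clusters were assigned are not given in the sources used here. Each nucleus was listed 2 times in the metadata and counted once. The lowest fragment count was 1000. The deposited table carries doublet scores per nucleus. Whether doublets were removed before deposit is not given in the sources used here, and no nuclei were removed for them.

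For each library the mean gene score over its nuclei (all, Int, Late or 1 cluster) was rescaled to 1000000. Genes with a mean level of at least 5 were tested as log2(level + 1) in R 4.3.3 with the package limma 3.58.1 (linear fit, moderated with a variance trend, two-sided, Benjamini-Hochberg adjustment over all genes tested, threshold 0.05). This scale understates differences of low genes. Late minus Int was fitted on within-library differences with genotype centred. The scripts were tested on simulated data. The labels' replicate numbers did not meet a correlation rule for pairing, given below, so no block was used. With 3 libraries per genotype, the rule cannot show that the libraries were prepared unpaired. Other steps used Python 3.11.15, numpy 2.4.6, pandas 2.3.3 and scipy 1.17.1.

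The 5 genes and the lists were chosen with earlier results of these data known. Named genes were the 5, all genes starting within 500 kb, Stag2, the lowest called genes outside the choice with groups apart, the most alike genes, and up to 6 called genes per list by size of difference. Alternatives were other scalings, pseudocounts, filters, weights and nuclei, the replicate block and each library left out.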

Additional observations from a re-analysis of the deposited data

Results flagged for a closer look

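The effect of the knockout on Rap2b differed between classes. KO minus WT was 1.0 in Late and 0.36 in Int nuclei on the log2 scale, and the difference of the effects was 0.63 (SE 0.11, limma adjusted p = 0.00127 over all genes, n = 3 libraries per genotype). Without a variance trend the adjusted p was 0.105. This gene was the neighbour of P2ry1, whose own effect, given as a description, differed by −0.25 between the classes.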

How the results depend on the processing

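No alternative changed the sign of KO minus WT for any of the 5 genes. They were chosen as among the lowest of this contrast in the same libraries, so nothing is read from that. The values that moved by more than the spread between libraries were as follows. In all nuclei, median centring gave P2ry1 −1.14, Gpc4 −1.36, Pdgfd −0.96, Gm11837 −1.14 and Gm2061 −1.04. In all nuclei, weighting by fragments gave P2ry1 −0.87 and Gm2061 −0.75. In all nuclei, quantile normalization gave Gpc4 −1.51, Pdgfd −1.07, Gm11837 −1.28 and Gm2061 −1.0. In all nuclei, cyclic loess gave Gpc4 −1.49, Pdgfd −1.05, Gm11837 −1.27 and Gm2061 −0.97. In all nuclei, a pseudocount of 5 gave Gpc4 −0.85, Pdgfd −0.63, Gm11837 −0.67 and Gm2061 −0.80. In all nuclei, matched nuclei gave Gm2061 −0.99. In Int nuclei, median centring gave P2ry1 −1.10, Pdgfd −1.21, Gm11837 −1.35 and Gm2061 −1.0. In Int nuclei, a pseudocount of 5 gave Gpc4 −0.93, Pdgfd −0.86, Gm11837 −0.86 and Gm2061 −0.75. In Int nuclei, quantile normalization gave Gm11837 −1.34 and Gm2061 −0.89. In Int nuclei, cyclic loess gave Gm11837 −1.33. In Late nuclei, quantile normalization gave P2ry1 −1.24, Gpc4 −1.58, Pdgfd −0.82 and Gm2061 −1.29. In Late nuclei, median centring gave P2ry1 −1.23. In Late nuclei, a pseudocount of 5 gave P2ry1 −1.06, Gpc4 −0.77 and Gm2061 −0.99. In Late nuclei, cyclic loess gave Gpc4 −1.63, Pdgfd −0.82 and Gm2061 −1.24. In Late nuclei, weighting by fragments gave Pdgfd −0.68. In Late nuclei, matched nuclei gave Gm2061 −1.23. Of neighbours called over all nuclei (5), quantile normalization gave 10, cyclic loess 9, median centring 10, matched nuclei 9, starts within 100 kb 1 and leaving out 1 library 3 to 7 (3 without KO replicate 2). In Int nuclei (3) the first 3 of these gave 9 each, fragment weighting 5, matched nuclei 5, the replicate block 6, starts within 100 kb 1 and leaving out 1 library 3 to 6 (6 without WT replicate 3). In Late nuclei (8) a minimum level of 20 gave 4, no variance trend 5, matched nuclei 4, starts within 100 kb 2, a minimum of 1 or no filter 12 each and leaving out 1 library 4 to 7. For the class difference (1) median centring, fragment weighting, matched nuclei and the replicate block gave 2 each, no variance trend 0 and leaving out 1 library 1 to 3. In cluster C2 leaving out 1 library gave 0 to 2 and in C5 0 to 1. These counts show how the calls moved, and nothing is read from them about the neighbours. Of all genes, 7661 were called over all nuclei, but 4244 at a minimum level of 20 and 2415 with fragment weighting, and 5355 to 8440 without 1 library. In Int nuclei 3858 were called, but 1921 without a variance trend and 2547 (without KO replicate 1) to 4782 without 1 library. In Late nuclei 8161 were called, but 4560 at a minimum of 20 and 11542 with no filter. The class difference of all genes (1329) ranged from 375 to 2700 without 1 library. Of 19 results with another sign in some alternative, 15 were called in neither fit, among them P2rx7 (down to −0.11) and Mir215 (−0.25) in Late nuclei and Gpc3, Hs6st2, Necab1 and Eprs over all nuclei (−0.21, −0.14, −0.20 and −0.12). Those called in one of the fits were Mir215 over all nuclei (−0.28 under quantile normalization and under cyclic loess) and, in Late nuclei, Nt5e (−0.034 and −0.060 under the same settings), P2ry2 (−0.0024, cyclic loess) and Flt1 (−0.0076, quantile normalization). What moved the counts and values under the alternatives was not tested. By the rule that each same-numbered pair correlate above 0.1, the replicate numbers did not pair the libraries (−0.12, −0.27 and 0.21 over all nuclei, 0.13, −0.08 and 0.19 in Int, and 0.09, 0.05 and 0.05 in Late nuclei, where each KO library still correlated best with the WT library of its number), and in this balanced design a replicate block cannot change the log2 differences, only the calls given above. Alternatives for the class difference, the lists, single clusters and Stag2, and the depth ranges for the shares of nuclei, were chosen after seeing the data. Early nuclei and the WT nuclei of C2 were too few for firm values.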
